A study of Mus musculus with 48 samples.

Results

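Transcripts of thermogenesis and of the PGC-1 coactivators were followed in liver, gastrocnemius muscle and epididymal fat of mice that overexpressed FGF21, were calorically restricted or were fasted. The genes were Ucp1, Ucp2, Ppargc1a, Ppargc1b, Cidea, Dio2, Prdm16, Esrra and Adrb3, chosen by symbol. Of these 9 genes, 7 had a probe under their symbol, 1 probe each, among 25697 probes and 16593 named genes. Ucp2 and Adrb3 were not analysed here.

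The first question was whether epididymal fat of FGF21-Tg mice carried transcripts of brown or beige adipocytes and the second was in which other tissues and conditions Ppargc1a was higher. Ppargc1a encodes PGC-1α, a coactivator that is induced by cAMP signalling and fasting and that docks on nuclear receptors to drive mitochondrial genes and, in liver, gluconeogenic genes. Ppargc1b encodes its relative PGC-1β, and Esrra encodes ERRα, an orphan nuclear receptor through which both act on mitochondrial genes. Ucp1 encodes the carrier that uncouples respiration in brown fat, Dio2 the deiodinase that activates thyroid hormone there, Prdm16 a regulator of brown fat identity and Cidea a lipid droplet protein that is abundant in brown adipocytes. White fat that gains cells with Ucp1 and Cidea is called browned.

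The 48 arrays came from C57Bl/6J mice aged 3 months, in 5 groups per tissue. FGF21-Tg mice carried an FGF21 transgene driven in hepatocytes by the apoE promoter, and wild-type littermates fed freely were their controls. The other 3 groups were wild-type mice that were fed ad libitum, fasted for 24 hr, or calorically restricted for 2 weeks, by 40% according to the labels, an amount on which the sources differ. Restricted mice were given 1 meal a day and were killed shortly before the next one, so restriction and the time since feeding cannot be told apart. Each replicate held RNA of 1 to 3 mice, with 4 replicates for caloric restriction and 3 for every other group, and the labels call the replicates biological.

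The arrays lay on 6 chips, and the labels of chips 2 and 3 were exchanged here position by position. As labelled, 4 of their 16 arrays carried the adiponectin (Adipoq), muscle creatine kinase (Ckm) and apolipoprotein A-I (Apoa1) transcripts of the named tissue, and after the exchange 16 of 16 did, as did 32 of 32 on the other chips. The 4 fat arrays at positions C and D of both chips cannot be checked by tissue. Over 10502 genes they correlated at 0.981 to 0.990 with the other arrays of their exchanged group. With those of the labelled group they correlated at 0.923 to 0.932. Each of the 4 shared its chip with the arrays of its exchanged group and not with those of the labelled group. These correlations therefore cannot separate group from chip. FGF21-Tg and wild-type littermate arrays were on chips 4 to 6 and were not exchanged. After the exchange all fat of the 3 feeding groups lay on chips 2 and 3, with restricted fat alone on chip 2, so chip and restriction cannot be told apart in fat. The transgene was visible in liver, where Fgf21 signal was 15.97, 15.97 and 15.84 in FGF21-Tg mice and 7.69, 7.69 and 9.11 in wild-type littermates. Fgf21 was also high in FGF21-Tg fat, at 14.34, 13.17 and 13.96, where it was not detected in wild-type littermates, at 5.62 to 5.89. In FGF21-Tg muscle it was detected on all 3 arrays, at 7.24 to 8.09, and in wild-type muscle on none. The source of the transcript in fat and muscle was not tested.

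Signals are given on a log2 scale after background correction and quantile normalization within a tissue. A probe was detected on an array where its detection p-value was under 0.05. A gene was tested in a tissue where it was detected on at least 3 arrays, and it was called higher or lower at a Benjamini-Hochberg adjusted p under 0.10 from limma with a change of more than 2-fold. Adjusted p-values below are from limma over all genes tested in the tissue, which were 10506 in fat, 9019 in liver and 9535 in muscle. Changes in bulk tissue cannot separate fewer cells of a type from less RNA per cell.

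The 250 bases before 1 transcript start of Ppargc1a and of Ucp1 are shown. The 2 genes were chosen because they gave opposite pictures in fat, a signal on every array and a signal on 2 arrays. Both windows come from RefSeq on GRCm38.p6, Ppargc1a at chr5:51567726-51567975 on the minus strand and Ucp1 at chr8:83290098-83290347 on the plus strand. The Ppargc1a window lies inside the annotated gene, chr5:51454249-52115853, and any other start of the gene was not searched. Capitals mark matches to TGACG or its reverse complement CGTCA, the half-site of the cAMP response element, searched on both strands.
Ppargc1a: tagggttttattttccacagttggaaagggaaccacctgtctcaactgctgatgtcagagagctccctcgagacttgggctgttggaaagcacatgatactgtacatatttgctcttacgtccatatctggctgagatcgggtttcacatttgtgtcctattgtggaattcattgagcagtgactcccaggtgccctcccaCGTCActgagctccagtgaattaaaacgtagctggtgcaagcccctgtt
Ucp1: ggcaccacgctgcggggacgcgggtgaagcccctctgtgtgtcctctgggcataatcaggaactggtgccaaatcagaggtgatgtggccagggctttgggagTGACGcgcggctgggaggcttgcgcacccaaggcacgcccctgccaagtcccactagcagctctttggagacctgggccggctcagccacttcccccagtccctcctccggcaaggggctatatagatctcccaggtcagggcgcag
Each window held 1 such match, 49 to 45 bases before the start in Ppargc1a and 147 to 143 bases before it in Ucp1. Of 32851 promoter windows of this length, 17.8% held at least 1. The full element TGACGTCA was in neither window, nor was AAGGTCA or its reverse complement TGACCTT, a core bound by estrogen-related receptors, which occurred in 4.08% of all windows.

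Ucp1 was detected on 2 of 48 arrays, both of fat. In FGF21-Tg fat its signal was 5.10, 4.99 and 10.91, with the third array alone detected. In wild-type littermates it was 4.96, 5.27 and 5.03, not detected on any. The other array with Ucp1 was replicate 2 of the calorically restricted group, at 8.54, while its 3 companions were not detected at 4.80, 4.88 and 5.10. Ucp1 was not detected in fasted or ad libitum fat. The FGF21-Tg group mean was at least 2.2-fold above what wild-type fat could show, and that bound rests on 1 array. The difference of means was 1.91 and became -0.04 without FGF21-Tg replicate 3. With too few arrays to enter the test, Ucp1 had an adjusted p of 0.485 when the detection filter was dropped. Ucp1 was not detected on any of the 32 liver and muscle arrays, and Dio2 and Prdm16 were detected on 0 of 48 arrays.

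**Figure D1:**
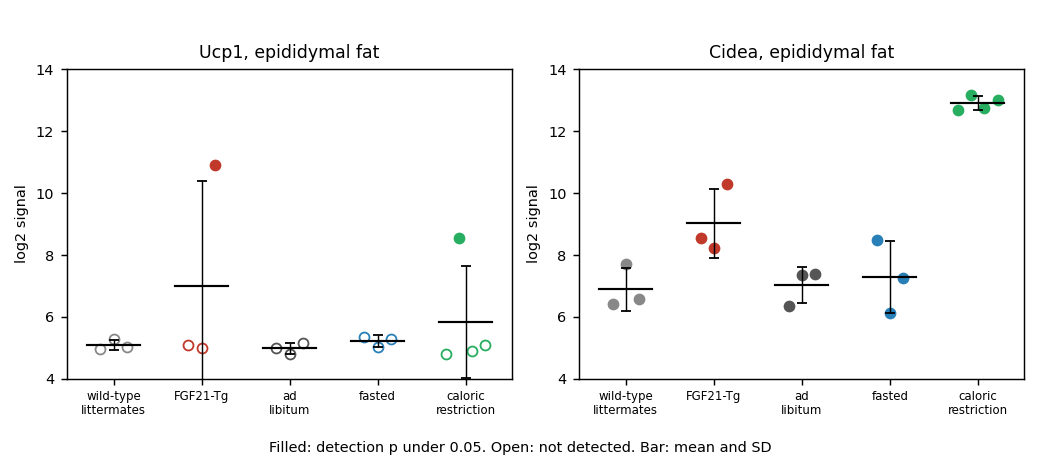
Ucp1 and Cidea in epididymal fat by array (vertical axis, log2 signal) in the 5 groups. Filled points were detected and open ones were not, and bars give the mean and SD. Ucp1 was detected on 1 FGF21-Tg and 1 calorically restricted array, while all 4 restricted arrays lay between 12.67 and 13.17 for Cidea.

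Cidea was detected on all 16 fat arrays. Its signal was 8.55, 8.24 and 10.31 in FGF21-Tg fat and 6.43, 7.69 and 6.56 in wild-type fat, and the groups did not overlap. It rose by 2.14 ± 0.59 (log2, SE), or 4.40-fold (adjusted p = 0.0637, limma). The highest value was on the array with Ucp1. Without FGF21-Tg replicate 3 the difference was 1.5 (adjusted p = 0.198), and without wild-type replicate 3 it was 1.97 (adjusted p = 0.167). With chips 2 and 3 left out of the shared spread it was 2.07 (adjusted p = 0.338). The wild-type arrays and 1 FGF21-Tg array shared chip 5, and there the difference was 1.65. With chip as a block that value had an adjusted p of 0.31.

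The restricted group had a far larger Cidea signal. Restricted fat had 12.67, 13.17, 12.76 and 13.00, and ad libitum fat 6.35, 7.35 and 7.39. The difference of 5.87 ± 0.55 was 58.6-fold (adjusted p = 1.96e-06, limma). It was 5.48 (adjusted p = 0.0081) without the 4 unchecked arrays and 6.00 (adjusted p = 1.72e-06) against wild-type littermates on chip 5. Fasted fat had 8.49, 6.14 and 7.25, overlapped ad libitum fat and differed from it by 0.26 (adjusted p = 0.812).

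Ppargc1a was detected on all 48 arrays. In FGF21-Tg fat its signal was 7.73, 7.56 and 7.64, against 6.49, 6.31 and 6.37 in wild-type littermates. The 2 groups did not overlap, and their difference was 1.25 ± 0.20 (log2, SE), or 2.38-fold (adjusted p = 0.00563, limma). Without chips 2 and 3 it was 1.25 (adjusted p = 0.0974), and on chip 5 alone it was 1.34. In a fit of these 2 groups only, the same difference had an adjusted p of 0.124. Ppargc1a and Cidea were the 2 of 4 tested members called higher in FGF21-Tg fat, where 1.89% of all genes tested were called higher and 0.695% lower. Neither Ppargc1b nor Esrra was called there. Without chips 2 and 3, Ppargc1a was the 1 member called, of 0.0834% of genes called higher.

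Caloric restriction gave the highest Ppargc1a signals in fat, 10.09, 10.52, 9.86 and 10.52 against 7.03, 6.57 and 7.18 in ad libitum mice. The increase was 3.32 ± 0.18, or 10-fold (adjusted p = 1.92e-08, limma). It was 3.10 (adjusted p = 2e-04) without the 4 unchecked arrays, and 3.86 against wild-type littermates. Fasted fat had 8.08, 8.48 and 8.08, a rise of 1.29 ± 0.20 over ad libitum (adjusted p = 0.000413) that stood at 1.03 (adjusted p = 0.0505) without the unchecked arrays. The summed signal of skeletal muscle markers in the same fasted fat was 3133 to 13320 against 1079 to 1780 in ad libitum fat, and its part in this rise was not tested. Restricted fat was 2.03 above fasted fat (adjusted p = 2.79e-06), where 4.55% of genes were called higher, and those 2 groups lay on different chips. Members called in restricted fat were again Ppargc1a and Cidea, 2 of 4 higher, where 6.07% of genes tested were called higher. In fasted fat Ppargc1a was 1 of 4, where 3.77% were.

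**Figure D2:**
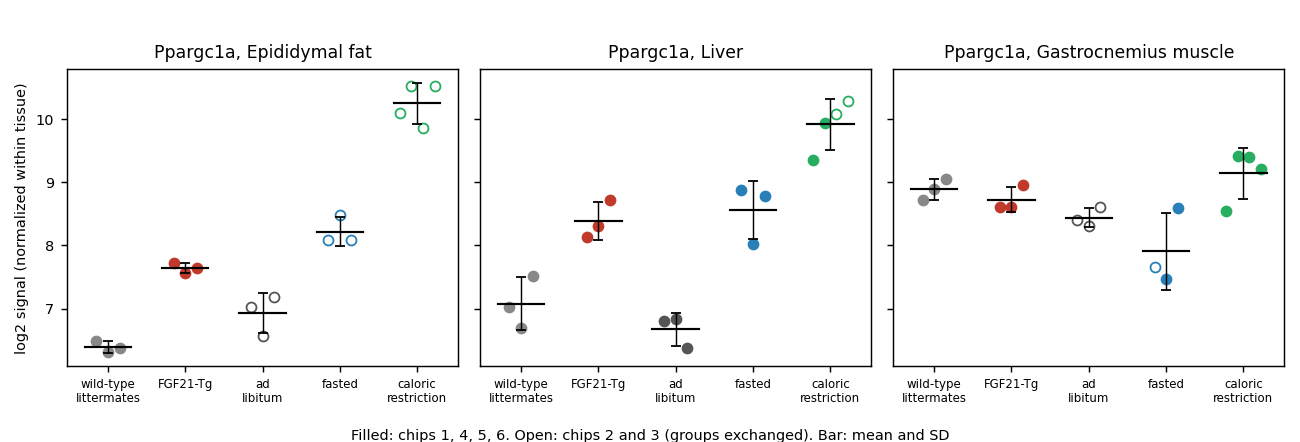
Ppargc1a by array (vertical axis, log2 signal normalized within each tissue) in 3 tissues and 5 groups. Filled points are arrays of chips 1, 4, 5 and 6, open points those of chips 2 and 3, and bars give the mean and SD. FGF21-Tg arrays lay above wild-type arrays in fat and liver and overlapped them in muscle.

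In liver Ppargc1a behaved much as in fat. Its signal was 8.13, 8.30 and 8.73 in FGF21-Tg mice and 7.02, 6.69 and 7.52 in wild-type littermates. The groups did not overlap, and the difference was 1.31 ± 0.28, or 2.48-fold (adjusted p = 0.0177, limma). It was 1.31 (adjusted p = 0.0225) without chips 2 and 3 and 1.12 (adjusted p = 0.102) without wild-type replicate 2. Wild-type replicates 1 and 2 lay on chip 4 and the other 4 arrays on chip 5. With chip as a block the difference was 0.87 (adjusted p = 0.357), which is also the value on chip 5, where 1 wild-type array remained. Ppargc1a was the 1 of 3 tested members called in FGF21-Tg liver, where 0.931% of genes were called higher, or 0.876% without chips 2 and 3.

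Restricted liver had Ppargc1a signals of 9.35, 9.94, 10.09 and 10.29, and ad libitum liver 6.80, 6.84 and 6.37. The increase was 3.25 ± 0.26, or 9.49-fold (adjusted p = 2.71e-07, limma). Without chips 2 and 3, which held restricted replicates 3 and 4, it was 2.97 (adjusted p = 3.1e-05), with all arrays on chip 1. Fasted liver had 8.87, 8.03 and 8.78, an increase of 1.89 ± 0.28 (adjusted p = 0.000236) that was 1.88 (adjusted p = 0.000482) without chips 2 and 3. Restricted liver was 1.36 above fasted liver (adjusted p = 0.00195), where 1.96% of genes were called higher. Ppargc1a was the 1 of 3 members called in either condition, where 3.64% of genes were called higher under restriction and 2.23% after fasting, and 3.65% and 2.25% without chips 2 and 3.

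Muscle gave a different picture. FGF21-Tg muscle had 8.60, 8.61 and 8.95 and wild-type muscle 8.73, 8.89 and 9.05, overlapping values that differed by -0.17 ± 0.26 (adjusted p = 0.934, limma), and -0.17 (adjusted p = 0.88) without chips 2 and 3. Restricted muscle had 8.55, 9.41, 9.39 and 9.22 and ad libitum muscle 8.40, 8.31 and 8.60. That difference of 0.71 ± 0.24 (adjusted p = 0.0267) stayed under 2-fold and the groups overlapped. All ad libitum muscle lay on chip 2, and against wild-type littermates, without chips 2 and 3, restricted muscle differed by 0.26 (adjusted p = 0.421). Fasted muscle had 7.66, 7.46 and 8.60, a difference of -0.53 from ad libitum (adjusted p = 0.13). From wild-type littermates it differed by -0.86 without chips 2 and 3 (adjusted p = 0.0393), with 2 fasted arrays left. In both comparisons with littermates, wild-type muscle lay on chip 6 and the other group on chip 4. Group and chip cannot be told apart in them. Restricted muscle was 1.24 above fasted muscle (adjusted p = 0.000999, and 0.0106 without chips 2 and 3), with overlapping arrays, where 3.22% of genes, or 3.39% without those chips, were called higher.

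The tissues were also compared directly, in 1 fit of all arrays over 11772 genes. That fit treated the arrays as independent, and the labels do not say whether tissues came from the same mice. The FGF21-Tg difference of Ppargc1a was 1.44 ± 0.37 larger in liver than in muscle (adjusted p = 0.0331, limma, and 0.0635 without chips 2 and 3). It was 1.23 ± 0.37 larger in fat than in muscle (adjusted p = 0.0684), and without chips 2 and 3 this was 1.19 (adjusted p = 0.127). Fat and liver differed by -0.21 ± 0.37 (adjusted p = 0.779). The restriction difference was 2.73 larger in fat than in muscle (adjusted p = 6.35e-08) and 2.48 larger in liver than in muscle (adjusted p = 6.94e-07), while fat minus liver was 0.25 ± 0.34 (adjusted p = 0.669).

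With all arrays normalized together, the order of Ppargc1a levels began with restricted liver at 10.13 ± 0.39 (mean log2 signal, SD, n = 4), restricted fat at 9.85 ± 0.35 and restricted muscle at 9.33 ± 0.39. The remaining muscle groups followed between 9.08 and 8.13, interleaved with fasted liver at 8.83 and FGF21-Tg liver at 8.66. Fasted fat at 7.68, wild-type liver at 7.38, FGF21-Tg fat at 7.08 and ad libitum liver at 6.97 came next, and ad libitum fat at 6.44 and wild-type fat at 6.02 were lowest. Neighbours in this order were closer than the larger of their SDs, except restricted fat and restricted muscle, ad libitum liver and ad libitum fat, and ad libitum and wild-type fat.

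**Figure D3:**
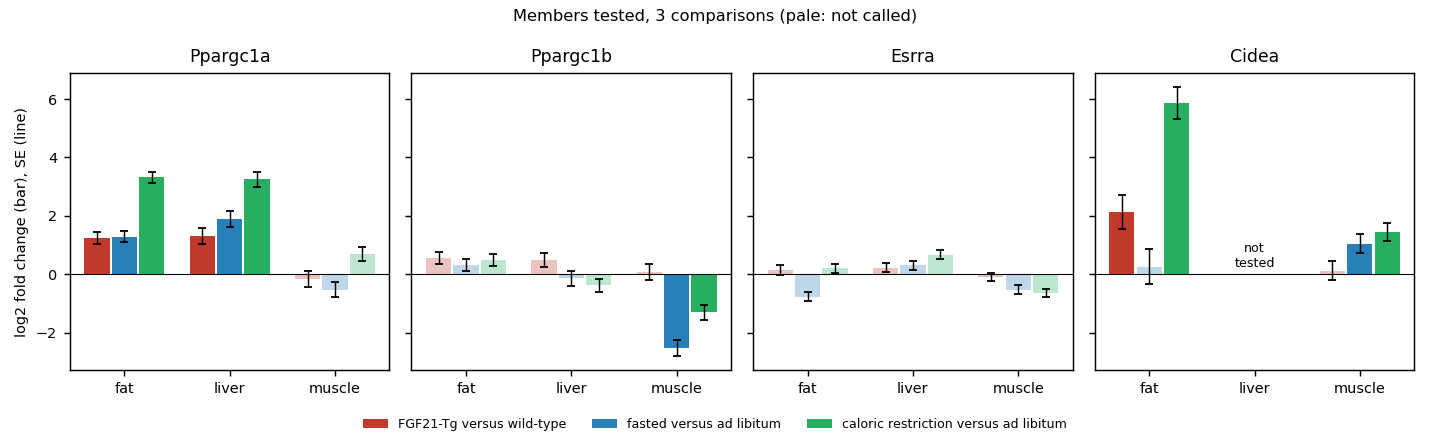
Log2 fold changes (bars) with SE (lines) of the 4 tested members in fat, liver and muscle for FGF21-Tg against wild-type, fasted against ad libitum and calorically restricted against ad libitum. Pale bars were not called, and Cidea was not tested in liver. Ppargc1a was called in fat and liver in all 3 comparisons, and Ppargc1b was called lower in muscle.

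Ppargc1b differed from Ppargc1a, since its called changes from ad libitum mice lay in muscle and were downward. Signals were 10.30, 10.61 and 11.13 in ad libitum muscle, 9.83, 9.33, 9.39 and 8.98 in restricted muscle and 8.76, 7.79 and 7.89 in fasted muscle. It fell by 1.30 ± 0.26 under restriction (adjusted p = 0.000786, limma) and by 2.53 ± 0.28 after fasting (adjusted p = 4.65e-06), and neither group overlapped ad libitum muscle. Against wild-type littermates without chips 2 and 3 the differences were -1.53 (adjusted p = 5.61e-05) and -3.07 (adjusted p = 2.42e-06). Only 2 fasted arrays were left there. Wild-type muscle lay on chip 6 and the other arrays on chip 4, so group and chip cannot be told apart. With chip as a block the restriction difference was -0.38 (adjusted p = 0.566) and the fasting one -1.92 (adjusted p = 0.000987). FGF21-Tg muscle, at 10.57, 10.94 and 11.40, overlapped wild-type muscle at 10.92, 10.74 and 11.04. In restricted muscle 6.59% and in fasted muscle 3.81% of genes tested were called lower.

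In fat and liver Ppargc1b was called in none of the comparisons of FGF21-Tg, restricted or fasted mice with their controls. FGF21-Tg fat had 9.84, 10.37 and 10.27 and wild-type fat 9.73, 9.56 and 9.50, which did not overlap and differed by 0.57 (adjusted p = 0.142). FGF21-Tg liver was at 9.40 to 9.75 and wild-type liver at 8.87 to 9.21, a difference of 0.49 (adjusted p = 0.342). The 2 control groups of liver differed by more than that, since ad libitum liver, at 9.85 to 10.46, was 1.14 above wild-type littermates (adjusted p = 0.0263, and 0.0104 without chips 2 and 3), where 0.898% of genes were called higher. These controls lay on different chips. Restricted liver differed from ad libitum liver by -0.38 (adjusted p = 0.251), and by -0.80 (adjusted p = 0.0232) without chips 2 and 3.

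Esrra was detected on all 48 arrays, and no comparison moved it past 2-fold. Fasted fat, at 10.35, 9.85 and 9.95, was 0.76 below ad libitum fat, at 10.83, 10.96 and 10.64 (adjusted p = 0.00525, limma), with no overlap. Restricted liver, at 10.82 to 11.29, was 0.66 above ad libitum liver, at 10.44 to 10.54 (adjusted p = 0.0039), and 0.52 above it (adjusted p = 0.056) without chips 2 and 3. The 2 control groups of liver again differed by more, 0.88 (adjusted p = 0.00901). In muscle Esrra was lower by 0.65 under restriction (adjusted p = 0.00115) and by 0.53 after fasting (adjusted p = 0.0109). Against wild-type littermates without chips 2 and 3 the differences were -0.23 (adjusted p = 0.194) and -0.16 (adjusted p = 0.484). These littermate comparisons again set chip 4 against chip 6. In FGF21-Tg mice the Esrra difference was 0.15 in fat, 0.23 in liver and -0.10 in muscle, with adjusted p of 0.65, 0.515 and 0.929.

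Cidea in muscle was near its detection limit. It was detected on 1 of 3 ad libitum arrays, 4 of 4 restricted arrays, 3 of 3 fasted arrays and on 0 of 6 arrays of FGF21-Tg and wild-type muscle. Signals were 5.26, 5.97 and 5.45 in ad libitum, 5.93, 7.26, 7.12 and 7.72 in restricted and 6.40, 6.52 and 6.91 in fasted muscle. The lowest restricted array lay below the highest ad libitum one, while the fasted arrays did not overlap them. The increases were 1.44 ± 0.31 (adjusted p = 0.00125, limma) and 1.05 ± 0.33 (adjusted p = 0.0219). With chip as a block they were 1.13 (adjusted p = 0.198) and 0.84 (adjusted p = 0.219). Wild-type muscle, all on chip 6, was not well above background on any array. Against it Cidea was at least 2.44-fold higher in restricted and at least 1.86-fold higher in fasted muscle. Those 2 groups lay on other chips, 1 array of the latter being on chip 2. Cidea entered the muscle test through the restricted and fasted arrays, where it was detected, so its calls there are a description. The fasting increase fell under 2-fold without fasted replicate 3 (0.90), without ad libitum replicate 1 (0.90) and without ad libitum replicate 3 (1.00). With Cidea higher and Ppargc1b lower, 2 of 4 tested members were called in either condition. Since Cidea is 1 of these 2, that count is a description too. Of all genes, 5.69% and 5.01% were called higher under restriction and fasting, and 12.3% and 8.82% in either direction. In FGF21-Tg muscle 0 of 4 were called, where 0.325% of genes were called in either direction, and 0 of the 4 had an unadjusted p under 0.05. Cidea, 1 of the 4, was detected on 0 of those 6 arrays, so its difference there was not measured. Cidea was not detected in liver.

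A wider list of 22 brown and beige adipocyte markers was then read in fat, where 15 were tested. In FGF21-Tg fat 2 were called higher, beside 1.89% of all genes, and 0 lower, with a median difference of 0.48 beside -0.01 for all genes. They were Cox8b, a subunit of cytochrome c oxidase, and Pank1, a pantothenate kinase of coenzyme A synthesis. Cox8b was 12.01, 10.57 and 11.69 in FGF21-Tg fat and 9.16, 10.57 and 9.63 in wild-type fat, a rise of 1.64 ± 0.44 (adjusted p = 0.0565, limma). The lowest FGF21-Tg array and the highest wild-type array were level at this precision. Pank1 rose by 1.21 ± 0.28 (adjusted p = 0.0342), from 9.03, 8.60 and 8.58 to 10.61, 9.12 and 10.12. Kcnk3, a potassium channel of brown adipocytes, differed by 0.96 (adjusted p = 0.0933), under 2-fold. Without chips 2 and 3, 11 of the list were tested and 0 were called by limma, 4 of them with an unadjusted p under 0.05, and their median was 0.62. Elovl3, a fatty acid elongase induced in cold-exposed brown fat, was detected on 2 of 3 FGF21-Tg arrays, at 5.90 and 5.96, and on 0 of 3 wild-type arrays. The groups overlapped, and the difference was 0.55 (adjusted p = 0.275, limma). The lowest detected signal of the wild-type arrays averaged 5.87, so no fold bound could be given.

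In restricted fat 6 of the 15 markers were called higher and 1 lower, with a median of 0.20, where 6.07% of all genes were called higher and 9.78% lower. Kcnk3 rose from 8.83, 9.40 and 8.95 to 12.53, 12.70, 12.73 and 12.55, a difference of 3.57 ± 0.28 (adjusted p = 4.14e-07, limma). Pank1 rose by 3.46 ± 0.26 (adjusted p = 3.32e-07). Elovl3 was detected on all 4 restricted arrays, at 7.19 to 8.40, and on no ad libitum array, which made it at least 3.6-fold higher. Elovl3 is 1 of the 6 called higher, but it entered the fat test only through restricted and FGF21-Tg arrays. Its call is therefore a description and lends the count of 6 no weight. Plin5, a lipid droplet protein of oxidative tissues, rose by 1.85, Cpt1b, the muscle-type carnitine palmitoyltransferase, by 1.73 and Cox8b by 1.40, while Ebf2, a transcription factor of brown precursors, fell by 1.08. In fasted fat Kcnk3 rose by 1.77 (adjusted p = 0.000959), Plin5 rose by 1.60 (adjusted p = 0.00222) and Cox7a1, another oxidase subunit, fell by 1.53 (adjusted p = 0.0602), where 3.77% of all genes were called higher and 4.57% lower.

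**Figure D4:**
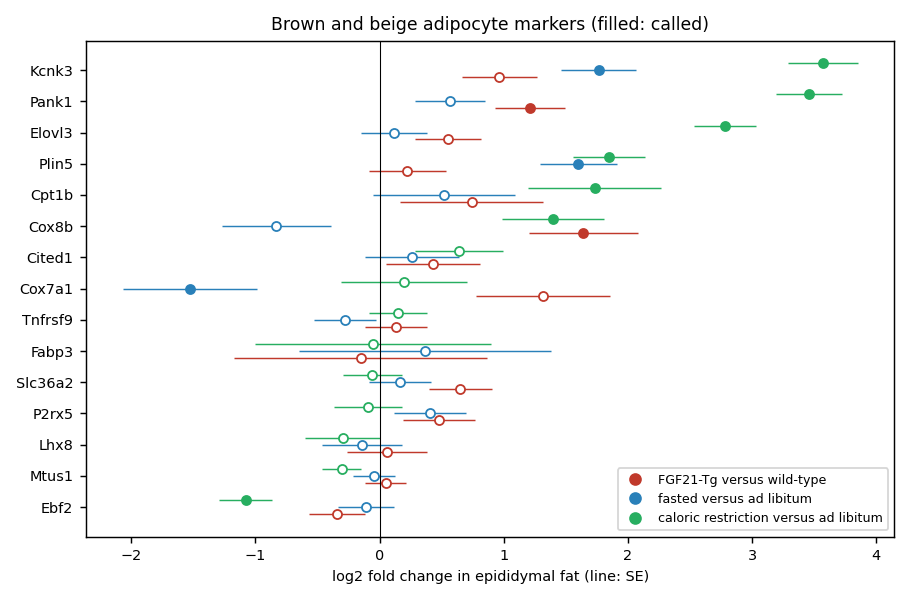
Log2 fold changes (horizontal axis) with SE (lines) of the 15 tested brown and beige adipocyte markers in epididymal fat, for 3 comparisons. Filled points were called. Kcnk3 and Pank1 had the largest fold changes, both in restricted fat, and Elovl3 was undetected in ad libitum fat.

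Markers of other cells moved in the same fat samples. Of 9 tested white adipocyte markers, 0 were called by limma in FGF21-Tg fat, 4 of them with an unadjusted p under 0.05, and their summed signal was 194500 to 226700 beside 219500 to 238000 in wild-type fat. In restricted fat Lep, the leptin gene of white adipocytes, fell by 9.33, from 15.61, 15.65 and 15.65 to between 6.14 and 6.46. Of all genes, 9.78% were called lower there. The summed white adipocyte signal was 186600 to 189300 in restricted and 247200 to 263000 in ad libitum fat. Of 5 tested skeletal muscle markers Mb, which encodes myoglobin, was called higher in FGF21-Tg fat, at 8.35, 6.87 and 8.17 against 6.18, 6.51 and 6.17. It was also called higher in restricted fat, at up to 9.71 against up to 6.97. Of all genes, 1.89% and 6.07% were called higher in these 2 comparisons. The skeletal muscle sum was 422.2 to 3216 in FGF21-Tg and 561 to 3430 in wild-type fat. In fasted fat it was 3133 to 13320, with 3 to 7 of 8 markers detected, above 1079 to 1780 in ad libitum fat with no overlap, and in restricted fat 933.3 to 1770. FGF21-Tg replicate 3, the array with Ucp1, was the only fat array with Ckm detected, at 7.95, and its skeletal actin (Acta1) signal was 11.24 where its companions had 6.42 and 6.33. Ckm was not detected on restricted replicate 2, the other array with Ucp1. Upk2 was 9.39 on FGF21-Tg replicate 3 and 9.48 on restricted replicate 2, and 5.97 or less on the other fat arrays. Myh11 was 13.07 and 10.40 on these 2 arrays and 10.10 or less on the others. Both genes are named for their likeness to Ucp1, and the source of their signal was not tested. The epididymis sum was 236.4 to 17720 in FGF21-Tg and 100.3 to 503.9 in wild-type fat, with Adam7 at 14.10 on FGF21-Tg replicate 1. Endothelial sums were 11080 to 13560 and 16990 to 20550 in these groups. In restricted fat they were 9827 to 11530 against 24290 to 26060 in ad libitum fat, and macrophage sums were 6322 to 7288 against 10830 to 15890. Hepatocyte sums were 49640 to 66420 in FGF21-Tg and 62550 to 65430 in wild-type fat. The part of these cells in the differences of Ppargc1a, Cidea, Ucp1 and the brown markers, in fasted fat too, was not tested.

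Genes on which PGC-1α acts were read from lists as well. In liver, 9 of 10 gluconeogenic and related targets were tested. In FGF21-Tg liver 2 were called higher and 0 lower, with a median of 0.40 beside 0.00 for all genes, of which 0.931% were called higher and 0.865% lower. Lpin1, a phosphatidate phosphatase and coregulator, rose by 1.54 ± 0.21 (adjusted p = 0.000336, limma), from 9.38, 9.45 and 9.40 to 10.69, 11.40 and 10.77. Pck1, the gluconeogenic enzyme PEPCK, rose by 1.07 (adjusted p = 0.0577). G6pc, which encodes glucose-6-phosphatase, was 14.46, 14.36 and 14.17 in FGF21-Tg and 14.96, 14.10 and 14.50 in wild-type liver and was not called. Under restriction 4 of the 9 were called higher, beside 3.64% of all genes, Lpin1 by 3.08, Tat (tyrosine aminotransferase, detected on 1 of 3 ad libitum arrays) by 2.20, Pck1 by 1.66 and G6pc by 1.39. After fasting 3 were called higher, beside 2.23% of all genes, Tat by 2.06, Pck1 by 1.75 and Lpin1 by 1.73. Without chips 2 and 3, Lpin1 and Pck1 were called in all 3 comparisons.

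Mitochondrial targets of PGC-1α and ERRα, 13 of 14 tested, moved by tissue. In restricted fat 2 were called higher, beside 6.07% of all genes. These were Pdk4, a kinase that restrains glucose oxidation, by 2.23 and Sdhb, a subunit of complex II, by 1.06. With no fold limit 10 of 13 were higher at an adjusted p under 0.10, as were 22.4% of all genes. In FGF21-Tg fat limma called 0, 4 of them had an unadjusted p under 0.05, and citrate synthase (Cs) was 0.74 higher (adjusted p = 0.015, limma), under 2-fold. In restricted muscle Pdk4 was called higher by 1.91, while Cycs, which encodes cytochrome c, fell by 1.65 and Vegfa, an angiogenic factor, by 1.24. Of all genes, 5.69% were called higher there and 6.59% lower. With no fold limit 8 of 13 were lower, as were 25.7% of all genes. In fasted muscle Ucp3, an uncoupling protein relative of muscle, rose by 2.01 (adjusted p = 1.12e-05), from 8.09, 8.12 and 7.98 to 9.73, 10.27 and 10.22. There 5.01% of all genes were called higher. Wild-type littermate muscle was above ad libitum muscle in Ucp3, with a mean of 8.60 and values from 8.12 to 9.30. The ad libitum control of these muscle differences lay on chip 2 alone. Of 9 tested mitochondrial biogenesis factors 3 were called higher in restricted fat, where 6.07% of all genes were. They were Gabpa by 1.46, Tfb2m by 1.36 and Sirt1 by 1.18. In FGF21-Tg fat 0 were called in either direction, beside 2.59% of all genes. Of 12 tested beta-adrenergic signalling genes, limma called 0 in FGF21-Tg fat, and in neither of these 2 lists did a gene have an unadjusted p under 0.05 there (0 of 9 and 0 of 12). In restricted fat Adcy6, an adenylyl cyclase, fell by 1.03.

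Over 15 tissue-group means, each taken from the mean of its tissue, the genes most like Ppargc1a were Cnst (Pearson r = 0.939), Pias2 (0.932), Itfg2 (0.926), Atp6v1g1 (0.919) and Hint1 (0.913). Over the 16 fat arrays the genes most like Ucp1 were Krt23 (r = 0.951), Upk2 (0.934), Tpm2 (0.934), Pgm5 (0.922) and Myh11 (0.908), and that likeness rests on the 2 arrays with Ucp1.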

How the data were processed

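Liver, gastrocnemius and epididymal fat RNA was hybridized to Illumina MouseRef-8 v2 arrays. The authors deposited unnormalized intensities from BeadStudio (version not given in the sources used here) and, with each, a detection p-value. The deposited log2 values were background corrected and quantile normalized by the authors, and lie between 9.28 and 16.07 with a median of 9.34, so that changes of dim probes are compressed. They served as an alternative. Intensities were background corrected with nec (limma 3.58.1, R 4.3.3, offset 16) and quantile normalized within each tissue. Each tissue had 1 linear model over its 5 groups, with limma's moderated test standing in for SAM, which was not run. Where a gene had several probes the brightest was used.

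Precision is limited by 3 or 4 arrays per group. Array medians were 182.2 to 264.8 in intensity, 42.0% to 56.3% of probes were detected, and replicates correlated at 0.903 to 0.993. Fits were tested on simulated data. The named genes are every member, up to 4 called genes of each list with the largest change, and the 5 genes most like Ppargc1a and Ucp1. Cpt1b, Cox8b and Ebf2 in restricted fat, Kcnk3, Elovl3, Acta1 and Adam7 in FGF21-Tg fat and G6pc in FGF21-Tg liver were named after their values were seen. Lists and members were chosen with earlier results of these data known. Bounds ("at least") set each undetected array at the lowest detected signal of that array, or its own if higher. Alternatives were other background, normalization, filter, chip and replicate settings, single arrays left out, chips 2 and 3 left out and the labels as given. Comparisons against wild-type littermates and without the 4 unchecked arrays were chosen after seeing the data, except the muscle comparison without chips 2 and 3.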

Additional observations from a re-analysis of the deposited data

Results flagged for a closer look

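In calorically restricted fat, Ucp1 on replicate 2 stood apart at 8.54 from 3 arrays at 4.80 to 5.10. Only groups of 4 arrays, the restricted ones, were checked, for each member detected there and in each tissue. Among them this was the 1 that stood apart, and chance sets apart about 1 in 20 such groups. Ucp1 entered the check only through that same array, with its 3 companions undetected, so this rate does not apply to it. Groups of 3 arrays, FGF21-Tg fat among them, were not checked.

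The size of a change differed between tissues for several members, by limma's test of the difference over 11772 genes. Differences are on the log2 scale. Some of them join tissues in which the single change was itself not called.

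Under FGF21-Tg the change of Ppargc1a was 1.23 larger in fat than in muscle (adjusted p = 0.0684) and 1.44 larger in liver than in muscle (adjusted p = 0.0331). Under restriction the corresponding differences were 2.73 (adjusted p = 6.35e-08) and 2.48 (adjusted p = 6.94e-07), and after fasting 1.76 (adjusted p = 0.000666) and 2.37 (adjusted p = 8.24e-06).

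The Cidea difference of 1.97 for fat against muscle under FGF21-Tg (adjusted p = 0.0734) is not a measured contrast, since Cidea was detected on 0 of the 6 muscle arrays concerned. It changed by 4.72 more in fat than in muscle under restriction (adjusted p = 1.58e-08), with 1 of 3 ad libitum muscle arrays detected. Ppargc1b changed by 1.79 more in fat than in muscle (adjusted p = 9.33e-05), 0.90 more in liver than in muscle (adjusted p = 0.0529) and 0.89 more in fat than in liver (adjusted p = 0.056) under restriction. After fasting its difference was 2.81 for fat against muscle (adjusted p = 5.17e-07) and 2.33 for liver against muscle (adjusted p = 1.26e-05).

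Esrra differed by 0.86 for fat against muscle (adjusted p = 0.00141) and by 1.25 for liver against muscle (adjusted p = 1.83e-05) under restriction. After fasting it differed by 0.80 for liver against muscle (adjusted p = 0.00992) and by -1.11 for fat against liver (adjusted p = 0.000445).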

How the results depend on the processing

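Most member results kept their direction and their side of the threshold under other offsets, detection limits and scalings of the arrays. Leaving the labels of chips 2 and 3 as given turned or moved the diet results of fat and muscle most. Ppargc1a was then -1.03 in restricted and -0.95 in fasted fat, 1.98 in restricted muscle (called) and 0.64 in fasted muscle, and in FGF21-Tg fat it was 1.14 (adjusted p = 1). As labelled, Cidea was -4.54 and -4.00 in restricted and fasted fat, Ppargc1b -0.10 in restricted fat, and Esrra -0.20 and 0.71 in restricted and fasted fat and 1.57 and 0.98 in restricted and fasted muscle. Without the 4 unchecked arrays Cidea in fasted fat was -0.10.

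Signals with no background correction put Ppargc1a at 0.56 in FGF21-Tg fat, 0.70 in fasted fat and 0.71 in FGF21-Tg liver, all under 2-fold. On the deposited log2 values it was 0.053, 0.60 and 0.083 in FGF21-Tg, restricted and fasted fat and 0.16, 0.73 and 0.24 in the same liver comparisons, on a scale whose median lies close to its lowest value. In FGF21-Tg fat a fit of the 2 groups gave 1.25 (adjusted p = 0.124) and a 2-group test without moderation 1.25 (adjusted p = 0.128). In FGF21-Tg liver that test gave 1.31 (adjusted p = 0.342), and chip as a block 0.87 (adjusted p = 0.357). The tissue difference of Ppargc1a for fat against muscle was 1.19 (adjusted p = 0.127) without chips 2 and 3.

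The count of called members was 2 in FGF21-Tg fat, and it was 1 without chips 2 and 3, with no background correction, with either block and at an adjusted p under 0.05, and 0 as labelled, on deposited values and in both 2-group fits. In restricted fat 2 became 0 as labelled and 1 on deposited values, and in fasted fat 1 became 0 as labelled, uncorrected and on deposited values. In FGF21-Tg liver 1 became 0 uncorrected, on deposited values, with the chip block and in the unmoderated test, and in restricted and fasted liver on deposited values. In restricted muscle 2 became 1 uncorrected and 0 on deposited values and with the chip block, and in fasted muscle 1 under these 3 and as labelled. Genes called in FGF21-Tg fat numbered 272, but 10 without chips 2 and 3, 4 as labelled, 110 uncorrected, 60 on deposited values, 464 with the chip block, 9 in the 2-group fit, 1 in the unmoderated test and 164 at an adjusted p under 0.05. With no background correction, on deposited values and as labelled, in that order, 1666 genes called in restricted fat became 863, 541 and 378, 876 in fasted fat 447, 310 and 476, 162 in FGF21-Tg liver 81, 52 and 49, 795 in restricted liver 362, 225 and 1237, 496 in fasted liver 231, 146 and 242, 31 in FGF21-Tg muscle 15, 8 and 2, 1171 in restricted muscle 478, 294 and 4031, and 841 in fasted muscle 368, 211 and 2482. Fasted fat had 459 without the unchecked arrays, FGF21-Tg liver 75 with the chip block and 9 in the unmoderated test, and FGF21-Tg muscle 0 in that test. The cause of these changes was not tested.

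With single arrays left out, Ppargc1a in FGF21-Tg liver ranged from 1.12 to 1.53 and Ucp1 in FGF21-Tg fat from -0.04 to 2.91. Called members ranged from 1 to 2 in FGF21-Tg fat, 0 to 1 in FGF21-Tg liver and 1 to 2 in fasted muscle. The 272 genes called in FGF21-Tg fat fell to 161 when FGF21-Tg replicate 3 was left out and to 180 when wild-type replicate 3 was, and leaving out wild-type replicate 1 gave 558. The 31 in FGF21-Tg muscle ranged from 18, without FGF21-Tg replicate 3, to 60, without FGF21-Tg replicate 1. Cidea ranged from -0.33 to 0.84 in fasted fat and from -0.018 to 0.25 in FGF21-Tg muscle, Esrra from -0.22 to 0.021 and Ppargc1b from -0.14 to 0.27 in FGF21-Tg muscle.

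Replicate numbers did not pair the arrays, whose same-numbered deviations correlated at -0.05 to 0.20. With the replicate block Ppargc1a was 1.25 (adjusted p = 0.02) in FGF21-Tg fat, and Cidea there, at 2.14 (adjusted p = 0.112), was the 1 member call lost. Each member had 1 probe, so other probes could not be tried. Chip as a block could not be fitted in restricted fat, and feeding groups of fat and the ad libitum muscle group had no arrays without chips 2 and 3.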

Other observations

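Among the 8 brown and beige markers tested in liver, Elovl3 was detected on 3 of 3 wild-type and 0 of 3 FGF21-Tg arrays and was at least 25-fold lower in FGF21-Tg liver (adjusted p = 6.41e-08, limma). It was also at least 5.9-fold lower in restricted than in ad libitum liver. Elovl3 was the 1 marker called lower there and in FGF21-Tg liver, where 5.18% and 0.865% of all genes were called lower. In restricted fat the same transcript was at least 3.6-fold higher. The other markers did not all fall in restricted liver. Mean Plin5 was 11.57 there against 8.99 in ad libitum liver, Cpt1b 7.99 against 6.66 and Cox7a1 8.30 against 7.04. Pank1, Ppara and Slc36a2 had lower means in restricted than in ad libitum liver.

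Foxo1, a forkhead factor of the fasting response, rose by 2.52 in restricted and 2.42 in fasted muscle, and Pnpla2, which encodes adipose triglyceride lipase, rose by 1.70 and 1.77 there. Of all genes, 5.69% and 5.01% were called higher in these muscle comparisons. All ad libitum muscle lay on chip 2 and all restricted muscle on chip 4, and the part of chip in these rises is not given here. In liver Pnpla2 rose by 1.44 under restriction and 1.39 after fasting, where 3.64% and 2.23% of all genes were called higher. In FGF21-Tg muscle 0 of 11 tested beta-adrenergic signalling genes, 0 of 13 mitochondrial targets and 0 of 9 biogenesis factors were called by limma, and 0 had an unadjusted p under 0.05.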
